A study of Bos taurus with 12 samples.

Results

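The enzymes that carry carbon units on folate, together with the enzyme that spends them on thymidylate, were followed in calf liver. They were taken by gene symbol from a list, and all 8 symbols (SHMT1, SHMT2, MTHFD1, MTHFD2, MTHFD1L, ALDH1L1, FTCD and TYMS) were matched among the 30336 gene IDs counted. TYMS is among the genes that the study calls differentially expressed on these libraries, so its place on the list is not independent of its values. All 8 passed the filter on low counts that left 13242 genes for testing.

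Liver was taken at 4 d of age from Holstein heifer calves. The dams of the CON calves ate a basal close-up diet without added Met for the last 28 d before calving, and the dams of the MET calves ate that diet plus ethyl cellulose rumen-protected Met (Mepron). The diet was therefore given to the cow and not to the calf, and the calves of both groups were fed and managed alike after birth. Each group had 6 libraries of poly(A)-selected, stranded RNA-seq, with 8277789 to 10397604 reads assigned to genes per library. The chi-square per gene between the counts of CON libraries 1 and 4 was 1.31 and that between MET libraries 1 and 3 was 1.23, close to the value of 1 of pure counting noise, whereas the other 64 pairs of libraries gave 23.3 to 122.2. The reads of each such pair were summed and counted as 1 sample, so that values below are for 5 CON and 5 MET samples, and results over all 12 libraries are given beside them. The CON and the MET libraries carried different first indexes, and the effects of index and of diet cannot be told apart here.

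Tetrahydrofolate is loaded with carbon from serine, chiefly by the serine hydroxymethyltransferases, of which SHMT2 works mainly in the mitochondrion and SHMT1 in the cytosol. In the mitochondrion MTHFD2 and MTHFD1L carry that carbon on to formate, which leaves for the cytosol, where MTHFD1 reloads it on folate. The cytosolic pool then serves purine synthesis, thymidylate synthesis by TYMS and the remethylation of homocysteine to Met, the link between this cycle and the Met supply that the diets altered. ALDH1L1 removes formyl groups from folate by oxidizing them to CO2, and FTCD brings in the formimino group left by the breakdown of histidine. Liver is known for large amounts of the cytosolic enzymes, and MTHFD2 for its abundance in embryonic and dividing cells.

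The liver label was checked against 8 hepatocyte genes, among them ALB, the plasma albumin, whose summed level was 135300 to 182700 CPM (reads scaled to a common library total by TMM) in CON and 110600 to 143900 in MET. Of these 8 genes, 7 had a log2 fold change below 0, and 1, ALB, was lower in MET at an unadjusted p of 0.05 or less (log2 fold change -0.66, adjusted p = 0.238 by edgeR and 0.0483 by DESeq2 over 10 samples). Macrophage genes (8 of 8 detected) summed to 854 to 1154 CPM in CON and 1163 to 1403 in MET, without overlap, and 4 of the 8 were higher in MET at an unadjusted p of 0.05 or less. Of all genes tested, 7.83% were higher and 8.52% lower at that p, and 3.72%, taken singly, did not overlap between the diets. The summed erythroid (1.40 to 24.7 against 2.91 to 23.5 CPM), lymphocyte, endothelial, stellate and bile duct genes overlapped between the diets, and of them 1 endothelial gene, KDR, was lower in MET at an unadjusted p of 0.05 or less. DESeq2 over 10 samples gave an adjusted p of 0.10 or less to 3 of those 4 macrophage genes, CD14, TYROBP and AIF1 (0.0446, 0.0502 and 0.00885). It did so for 5.71% of the genes to which it gave an adjusted p. What part the macrophage and hepatocyte genes have in the differences below was not tested. These are bulk samples, in which fewer cells of a type and less RNA per cell cannot be told apart.

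TYMS, the enzyme that makes thymidylate for DNA, had the lowest MET to CON ratio, 0.651 (95% interval 0.503 to 0.842), and MTHFD1 was next at 0.804 (0.656 to 0.985). The other enzymes had intervals that included 1. With edgeR's quasi-likelihood test over the 10 samples, 0 of the 8 reached a Benjamini-Hochberg adjusted p (FDR) of 0.10 or less. Over all genes tested the count was likewise 0 (0.0%), with a lowest adjusted p of 0.156. At an unadjusted p of 0.05 or less there were 2 of the 8, both lower in MET, where 16.3% of all genes tested passed (8.52% lower and 7.83% higher). Over the 12 libraries TYMS was the 1 enzyme with an FDR of 0.10 or less, against 4.41% of all genes (2.32% lower), and DESeq2 over the 10 samples also called TYMS alone, against 5.71% of the genes to which it gave an adjusted p (2.98% lower). DESeq2 over 12 libraries called TYMS and MTHFD1, against 10.4%. In none of the 8 enzymes did the samples of MET and CON separate fully, as 3.72% of all genes did.

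**Figure D1:**
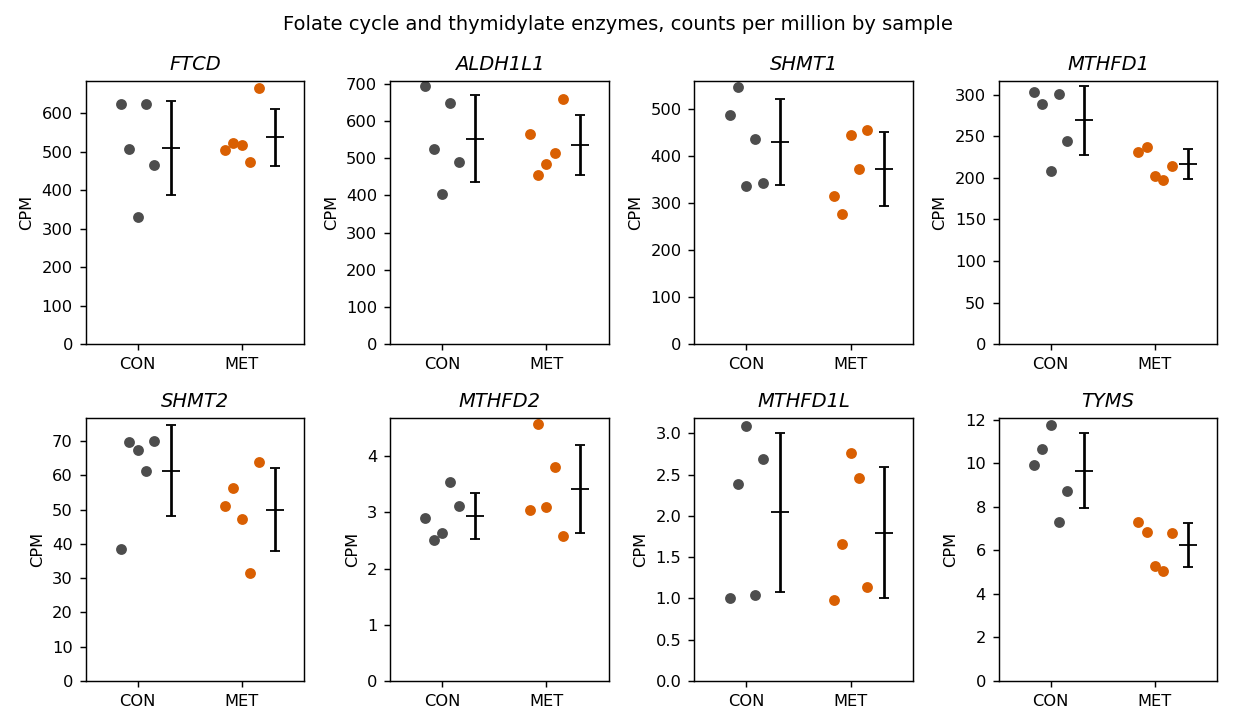
Levels in CPM (linear axes from 0) of the 8 enzymes in the 5 CON (grey) and 5 MET (orange) samples, each point a sample, with the mean and SD drawn in black beside each group. The MET points of TYMS lie at 5.03 to 7.30 CPM and the CON points at 7.29 to 11.8, and the groups overlap in every panel.

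**Figure D2:**
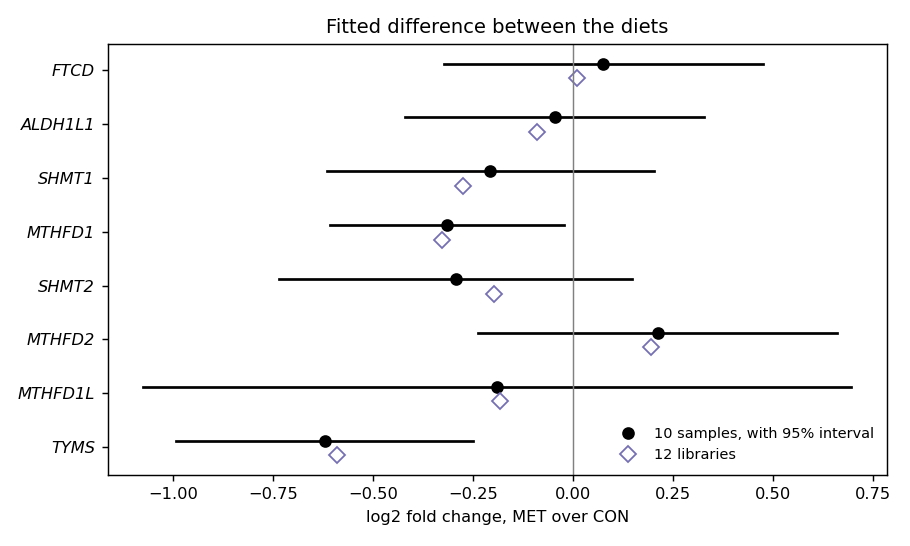
Fitted log2 fold change of MET over CON for the 8 enzymes, with filled points and lines for the estimate and 95% interval over 10 samples and open diamonds for the estimate over 12 libraries. The intervals of TYMS (-0.99 to -0.25) and MTHFD1 (-0.61 to -0.02) end below 0, and the other 6 cross it.

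The levels of the enzymes were compared per length, as CPM per kilobase of exon (RPKM). FTCD was the most abundant, at 188 RPKM over all 10 samples, and 2.86% of the genes tested had a higher level. ALDH1L1 followed at 166 RPKM, SHMT1 at 84.7, MTHFD1 at 78.3, SHMT2 at 22.1, TYMS at 4.95, MTHFD2 at 1.94 and MTHFD1L at 0.629. FTCD, ALDH1L1, SHMT1 and MTHFD1, all of the cytosolic pool, thus lay above the 3 mitochondrial enzymes, and 92.1% of the genes tested lay above MTHFD1L. Neighbours in this order overlapped within both diets for FTCD and ALDH1L1 (FTCD higher in 9 of 10 samples) and for SHMT1 and MTHFD1 (SHMT1 higher in 6 of 10). All other neighbours were apart in every sample of both diets. The length used is that of all annotated exons of a gene together, 4742 bases for SHMT1 against 1609 for TYMS, and a long exon that liver transcripts do not use would lower the RPKM.

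**Figure D3:**
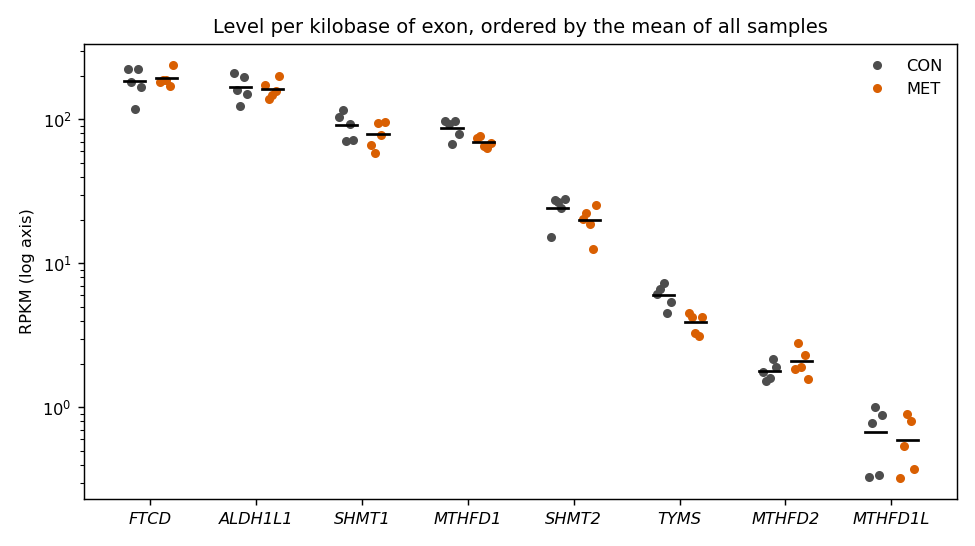
RPKM on a log axis for the 8 enzymes in order of their mean, with a point for each of the 5 CON (grey) and 5 MET (orange) samples and a black line at each group mean. The levels run from 188 RPKM for FTCD down to 0.629 for MTHFD1L, and the order is the same in both diets.

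Of the pair that takes carbon from serine, the cytosolic enzyme was the more abundant. SHMT1 (gene 509002, chr19:34914335-34930169, plus strand, 14 exonic blocks; all positions are on UMD 3.1.1) was at 488, 546, 337, 437 and 343 CPM in CON samples 1 and 4, 2, 3, 5 and 6. In MET samples 1 and 3, 2, 4, 5 and 6 it was at 316, 276, 445, 372 and 457 CPM. The samples of both diets were spread over much the same range, and the means, 430 ± 91.1 (SD, n = 5) in CON and 373 ± 78.8 in MET, differed by less than their SD. The fitted log2 fold change was -0.21 (SE 0.19, interval -0.61 to 0.20), with an adjusted p of 0.616 from edgeR over 10 samples and 0.357 over 12 libraries, and it was -0.11 without CON 2 or without MET 2. Of its exonic bases 1062 overlap SMCR8 on the opposite strand, whose reads the stranded counting keeps apart.

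SHMT2 (gene 507197, chr5:56539302-56547421, minus strand, 15 exonic blocks), the mitochondrial partner, was at 38.4, 69.7, 67.3, 61.2 and 70.2 CPM in the CON samples, in the same sample order. It was at 50.9, 56.4, 47.3, 31.6 and 63.8 CPM in the MET samples. The sample of CON 1 and 4 stood below the other CON samples, which lay between 61.2 and 70.2, and below 4 of the 5 MET samples. The log2 fold change was -0.29 (SE 0.20, interval -0.73 to 0.15; edgeR adjusted p = 0.496 over 10 samples, 0.597 over 12 libraries). It was -0.42 without that pair (unadjusted p = 0.0350, edgeR adjusted p = 0.304) and -0.17 without MET 5, the lowest sample (unadjusted p = 0.375 from edgeR). The SHMT1 level per length was 2.60 to 6.76 times that of SHMT2 across the samples. The median ratio was 3.79 in CON and 3.80 in MET.

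The mitochondrial enzymes downstream of SHMT2 were measured on few reads. MTHFD2 (gene 517539, chr11:10409032-10430853, minus strand), which oxidizes methylene folate to formyl folate, had 20 to 65 reads per sample. Its levels were 2.91, 2.51, 2.63, 3.54 and 3.11 CPM in CON. They were 3.04, 4.58, 3.105, 3.80 and 2.57 CPM in MET. MET 2 was the highest sample, and the others of both diets mixed. The log2 fold change of 0.21 (SE 0.21, interval -0.24 to 0.66) had an edgeR adjusted p of 0.641 over 10 samples and 0.651 over 12 libraries. It ranged from 0.086, without MET 2, to 0.33, without CON 1, when a library or pair was left out. Libraries 1 and 4 of CON, nearly alike over all genes, gave 37 and 15 MTHFD2 reads.

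MTHFD1L (gene 534296, chr9:89136866-89285018, plus strand), the mitochondrial enzyme that releases formate, had only 10 to 27 reads per sample. It was at 1.01, 2.39, 3.08, 1.04 and 2.70 CPM in CON and at 0.983, 1.66, 2.76, 2.46 and 1.13 CPM in MET. Its low samples, CON 1 and 4, CON 5, MET 1 and 3 and MET 6, came from both diets, and the ratio of highest to lowest sample, 3.14, was above that of every other member. The log2 fold change was -0.19 with an interval from -1.07 to 0.70 (edgeR adjusted p = 0.854 over 10 samples), and how much of that width is counting error was not tested.

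MTHFD1 (gene 534382, chr10:76858872-76919406, plus strand, 29 exonic blocks), the cytosolic enzyme that interconverts formyl, methenyl and methylene folate and takes up formate, was at 0.804 times its CON level in MET. Its levels were 303, 289, 208, 301 and 245 CPM in the CON samples. In the MET samples they were 231, 238, 203, 197 and 214 CPM. All 5 MET samples were below 4 of the 5 CON samples, and CON 3 lay within the MET range. The means were 269 ± 41.4 (SD, n = 5) and 217 ± 17.6 CPM. The log2 fold change was -0.32 (SE 0.13), with an edgeR adjusted p of 0.281 over 10 samples (unadjusted p = 0.0369) and 0.138 over 12 libraries, and the exact two-sided permutation p was 0.0397, where the smallest that 5 against 5 samples can give is 0.00794. The unadjusted p from edgeR stayed at 0.05 or less in 8 of the 14 fits that left out a library or a pair. Those without CON 1, CON 4, MET 1 or MET 3 removed 1 library of a summed pair and kept all 10 samples. Their p was 0.0360 to 0.0383. The p was 0.0591 to 0.0919 without CON 2, CON 5, MET 4, MET 5, MET 6 or the pair of CON 1 and 4. It was 0.0954 with scaling by library size alone and 0.0534 without a filter on low counts.

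MTHFD1 exceeded the mitochondrial enzymes by a wide margin per length, 27.5 to 61.0 times for MTHFD2 and 66.6 to 296 times for MTHFD1L. The log2 ratio of MTHFD2 to MTHFD1 was -5.60 ± 0.25 (SD, n = 5) in CON and -5.09 ± 0.31 in MET, a difference of 0.51 with overlapping samples. The differences of MTHFD1 and MTHFD2 add up in this ratio, which rests on few MTHFD2 reads. The ratio of MTHFD1L to MTHFD1 differed by 0.16 on the log2 scale, less than its SD of 0.98 in CON and 0.74 in MET.

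ALDH1L1 (gene 505677, chr22:61221250-61248521, minus strand, 23 exonic blocks), which strips formyl groups from folate in the cytosol, was at 693, 525, 405, 649 and 491 CPM in CON and at 566, 456, 484, 514 and 659 CPM in MET. The MET samples lay inside the CON range. Its log2 fold change was -0.05 (SE 0.17, interval -0.42 to 0.33; edgeR adjusted p = 0.923 over 10 samples).

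FTCD (gene 535816, chr1:147581909-147598209, minus strand, 15 exonic blocks), which joins histidine breakdown to the folate pool, was at 623, 506, 329, 624 and 465 CPM in CON and at 506, 522, 518, 473 and 667 CPM in MET. In MET, 4 samples lay between 473 and 522 CPM and MET 6 stood above them. The log2 fold change was 0.08 (SE 0.18, interval -0.32 to 0.47; edgeR adjusted p = 0.873 over 10 samples). ALDH1L1 and FTCD varied together between samples, as the correlation of their deviations from the diet means was 0.90 over the 10 samples, and both were lowest in CON 3 and, in MET, highest in MET 6. ALDH1L1 and MTHFD1L ran opposite, with a correlation of -0.84. These coefficients describe samples that share library scaling, and MTHFD1L rests on few reads.

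TYMS (gene 507631, chr24:35935161-35945796, plus strand, 8 exonic blocks) had 9.90, 10.7, 11.8, 7.29 and 8.71 CPM in CON samples 1 and 4, 2, 3, 5 and 6. It had 7.30, 6.83, 5.29, 5.03 and 6.80 CPM in MET samples 1 and 3, 2, 4, 5 and 6. CON 5, at 7.287 CPM, lay just under MET 1 and 3, at 7.300, and the other 4 CON samples were above every MET sample. The means were 9.67 ± 1.74 (SD, n = 5) and 6.25 ± 1.02 CPM, a ratio of 0.651 in the fit. The log2 fold change was -0.62 (SE 0.17, interval -0.99 to -0.25), with an edgeR adjusted p of 0.175 over 10 samples (unadjusted p = 0.00337). Over 12 libraries it was -0.59 (SE 0.16) with an edgeR adjusted p of 0.0849, and DESeq2 over 10 samples gave an adjusted p of 0.0530. The exact two-sided permutation p was 0.0159. The 14 fits that left out a library or a pair gave log2 fold changes of -0.71 to -0.54, each with an unadjusted p of 0.05 or less and an adjusted p of 0.149 to 0.286. Those without CON 1, CON 4, MET 1 or MET 3 kept all 10 samples.

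TYMS had 45 to 177 reads per sample. Libraries 1 and 3 of MET, nearly alike over all genes, gave 8.85 and 5.72 CPM, on 96 and 60 reads. Of the TYMS exons, 187 bases overlap ENOSF1, which lies on the opposite strand.

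The other genes of deoxynucleotide supply lay on both sides of 0. Of 9 genes tested, 2 were lower and 1 higher in MET at an unadjusted p of 0.05 or less. Of all genes tested, 8.52% were lower and 7.83% higher at that p. The median log2 fold change of the 9 was -0.15, against -0.0028 over all genes tested. RRM2, the ribonucleotide reductase subunit that dividing cells make in S phase, was at 9.13 ± 5.68 CPM (SD, n = 5) in CON and 3.84 ± 1.06 in MET, a log2 fold change of -1.21 (edgeR adjusted p = 0.189). DCK, which phosphorylates deoxycytidine, was at 3.11 ± 0.95 against 1.58 ± 0.87 CPM, a log2 fold change of -0.91 (edgeR adjusted p = 0.266). TK2, the mitochondrial thymidine kinase, was on the higher side, at 29.7 ± 6.11 against 38.2 ± 4.99 CPM (log2 fold change 0.36, edgeR adjusted p = 0.285). By edgeR none of the 9 had an FDR of 0.10 or less, over 10 samples or 12 libraries, and by DESeq2 RRM2 did (adjusted p = 0.0531 over 10 samples and 0.0520 over 12 libraries). DESeq2 called 5.71% and 10.4% of the genes to which it gave an adjusted p in these 2 fits.

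TYMS is known as a gene of dividing cells, and 18 genes of proliferation were set beside it. Of the 16 tested, 10 were lower in MET at an unadjusted p of 0.05 or less and 0 higher. Of all genes tested, 8.52% were lower and 7.83% higher at that p. The median log2 fold change of the list was -1.08, against -0.0028 over all genes. By edgeR, none of the 16 had an FDR of 0.10 or less over 10 samples (0.0% of all genes). Over 12 libraries 5 did (4.41% of all genes). DESeq2 gave 6 over 10 samples and 7 over 12 libraries, against 5.71% and 10.4% of the genes to which it gave an adjusted p. The study names several of these genes as differentially expressed on the same libraries, and the counts are therefore not independent evidence of the list's direction. Without CON 3, the sample with the highest levels, 7 were lower at that unadjusted p and the median was -0.82. CCNE2, a cyclin of the entry into S phase, was at 4.82 ± 1.40 CPM (SD, n = 5) in CON and 1.87 ± 0.36 in MET. Its samples did not overlap between the diets, as in 3.72% of all genes. Its log2 fold change was -1.37 (adjusted p = 0.156 by edgeR and 0.00155 by DESeq2 over 10 samples). CCNB1, the mitotic cyclin, was at 3.34 ± 2.01 against 0.69 ± 0.38 CPM, and CDK1, its kinase, at 8.51 ± 5.96 against 2.21 ± 0.77. ECT2, which acts in cytokinesis, was at 3.34 ± 2.08 against 0.96 ± 0.34 CPM. The log2 fold changes of these 3 genes were -2.11, -1.89 and -1.72 (edgeR adjusted p = 0.172, 0.174 and 0.175 over 10 samples and 0.0719, 0.0766 and 0.0859 over 12 libraries). Of these 3, CDK1 also passed by DESeq2 over 10 samples (adjusted p = 0.00568), where DESeq2 gave the other 2 no adjusted p, and all 3 did over 12 libraries.

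The summed level of the 18 genes was 161 ± 47.5 CPM (SD, n = 5) in CON and 110 ± 19.6 in MET, with overlap. It was 126, 196, 224, 114 and 146 CPM in CON samples 1 and 4, 2, 3, 5 and 6, and 142, 110, 92.2, 95.6 and 112 CPM in MET samples 1 and 3, 2, 4, 5 and 6. Within CON, sample 5 was lowest and sample 3 highest in both TYMS and the sum. Within MET, the sample of libraries 1 and 3 was highest in both. The correlation of TYMS with the sum, as deviations from the diet means of log2 CPM, was 0.85 over the 10 samples, which share library scaling. For the other enzymes it ran from -0.64 (FTCD) to 0.48 (SHMT2), and for MTHFD2 it was -0.48. Whether the lower TYMS of MET is part of a lower share of dividing cells was not tested.

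**Figure D4:**
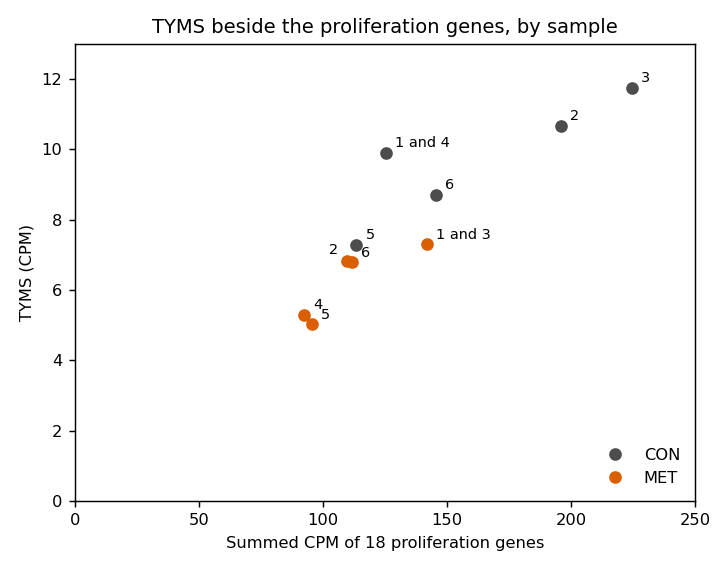
TYMS (CPM) against the summed CPM of 18 proliferation genes in the 5 CON (grey) and 5 MET (orange) samples, each point a sample labelled by its replicate numbers, with both axes from 0. CON 3 is highest in both measures, at 224 and 11.8 CPM, and CON 5 lies among the MET samples.

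The genes whose deviations from the diet means ran closest to those of each enzyme were sought among 11682 genes over the 10 samples, a search in which high coefficients arise for every enzyme. For TYMS they were PCLAF, a PCNA-binding factor (r = 0.93), KIF22, a mitotic kinesin (0.89), and PAQR7 (0.88). PCLAF and KIF22 had log2 fold changes of -1.075 and -0.996, and PAQR7 went the other way, at 0.932. For SHMT2 they were IMMT, a scaffold of the mitochondrial inner membrane (0.98), CAVIN1 (0.95) and AIFM1, a mitochondrial flavoprotein (0.95). For SHMT1 they were PTOV1 (0.97), MRPL14, a mitochondrial ribosomal protein (0.97), and IVD, which acts in leucine breakdown (0.95). MTHFD1 ran with SUN3, ATP9B (both 0.95) and CAT, the catalase (0.95). ALDH1L1 ran with TMEM42 (0.97), TRAF2 (0.97) and CYP2D14 (0.95), and FTCD with FIS1 (0.96), TMEM86A (0.94) and TP53I13 (0.94). The 3 closest to MTHFD2 (SLC25A23, RPP30 and KIF14) had 0.87 to 0.88 and those to MTHFD1L (TBL2, CPOX and WSB2) 0.89 to 0.91.

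The pathway around the cycle was described by lists of genes. Of 7 other enzymes that interconvert folates, 7 of transport, storage and polyglutamation and 2 that use formyl folate for purines, 0 of 16 passed an unadjusted p of 0.05 in edgeR over 10 samples. Of all genes tested, 16.3% did. Over 12 libraries 1 did, MTFMT, named here after its values were seen, and none had an FDR of 0.10 or less over 12 libraries by edgeR or DESeq2. The median log2 fold changes of these lists were -0.09, -0.08 and -0.05. The most abundant of each were MTHFS, which recycles formyl folate (144 ± 11.4 CPM in CON, 135 ± 18.1 in MET), and QDPR (130 ± 39.5 and 127 ± 38.1). In the transport list they were GGH, which trims folate polyglutamates (53.8 ± 15.5 and 45.2 ± 9.41), and the folate receptor FOLR2 (28.2 ± 6.25 and 30.0 ± 7.16). The purine enzymes were ATIC (65.1 ± 8.94 and 62.7 ± 3.20) and GART (40.4 ± 7.40 and 39.0 ± 5.63), where all errors are SD of 5 samples. In every case the difference between diets was under the larger SD.

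Among the routes that feed carbon into the cycle, 3 genes were lower in MET at an unadjusted p of 0.05 or less. Of all genes tested, 8.52% were lower at that p. GLDC, the decarboxylase of the glycine cleavage system, was at 214 ± 31.7 CPM (SD, n = 5) in CON and 133 ± 54.9 in MET (log2 fold change -0.69, edgeR adjusted p = 0.228), 1 of 6 genes of its list, all with a fold change below 0. PSAT1, an aminotransferase of serine synthesis, was at 77.5 ± 23.7 against 43.8 ± 15.2 CPM (-0.82, edgeR adjusted p = 0.195), 1 of 6 tested in a list with a median of 0.09. AMDHD1, the histidine breakdown enzyme just before FTCD, was at 57.0 ± 19.6 against 32.5 ± 7.55 CPM (-0.81, edgeR adjusted p = 0.195). It was 1 of 3 genes of its list, all with a fold change below 0. By edgeR over 12 libraries AMDHD1 had an adjusted p of 0.0766, and the other genes of these supply lists were above 0.10. By DESeq2 both AMDHD1 and PSAT1 were under 0.10, over 10 samples (adjusted p = 0.0797 and 0.0746) and over 12 libraries (0.0117 and 0.0467). The shares of genes called were 4.41% by edgeR over 12 libraries, and 5.71% and 10.4% by DESeq2 over 10 samples and 12 libraries. FTCD itself, the step of histidine breakdown after AMDHD1, had a fold change near 0.

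MTHFD2 and SHMT2 are known targets of the stress factor ATF4, and 8 other targets were counted beside them. PSAT1 and PHGDH, known targets too, stand in the list of serine supply and not in this one, and their log2 fold changes were below 0, at -0.82 and -0.37 (edgeR adjusted p = 0.195 and 0.590). Of the 7 tested in this list, 3 were higher in MET at an unadjusted p of 0.05 or less and 0 lower. Of all genes tested, 7.83% were higher and 8.52% lower at that p. The median log2 fold change of the list was 0.10, against -0.0028 over all genes. Without MET 4 or without the pair of CON 1 and 4, 1 of the list was higher at that p. DDIT3, a stress transcription factor, was at 17.7 ± 2.04 CPM (SD, n = 5) in CON and 26.0 ± 2.66 in MET. Its samples did not overlap between the diets, as in 3.72% of all genes. Its log2 fold change was 0.55 (edgeR adjusted p = 0.156 over 10 samples and 0.0452 over 12 libraries, DESeq2 adjusted p = 0.00766 and 0.00112). ASNS, asparagine synthetase, was at 9.71 ± 0.96 against 13.9 ± 4.74 CPM (0.50, edgeR adjusted p = 0.266), and SLC3A2, an amino acid transporter subunit, at 27.0 ± 4.31 against 33.9 ± 3.49 (0.33, adjusted p = 0.242 by edgeR over 10 samples and 0.0640 by DESeq2 over 12 libraries). MTHFD2 and SHMT2, at 0.21 and -0.29, lay on opposite sides of 0.

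**Figure D5:**
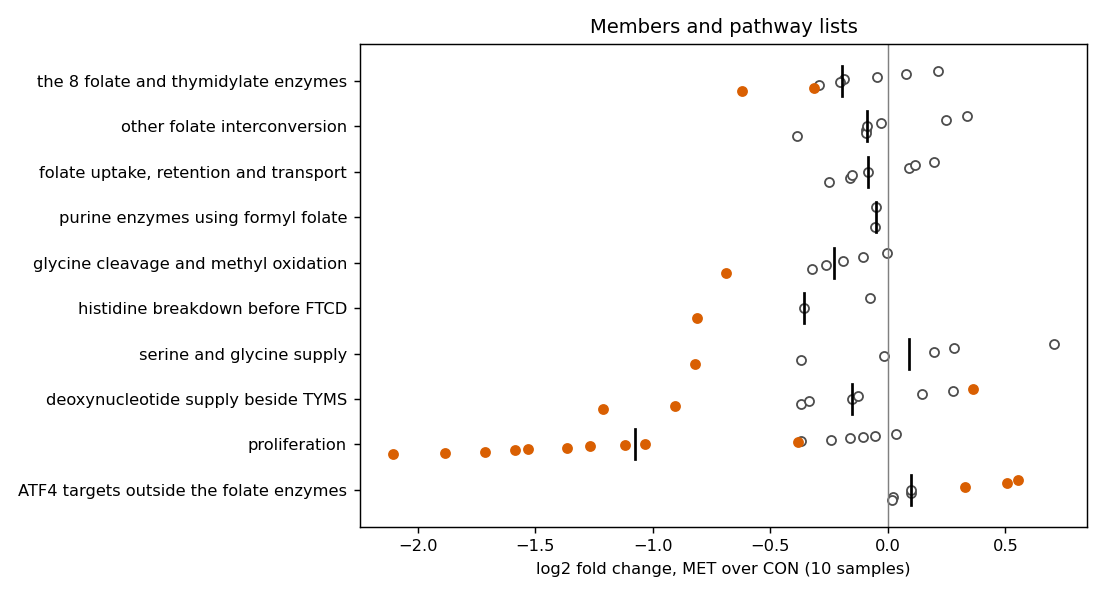
Log2 fold change of MET over CON (10 samples) of the tested genes in each list, with filled orange points for an unadjusted p of 0.05 or less, open points for the rest and a black line at the list median. The proliferation list has 10 filled points, all below 0 and a median of -1.08, and the medians of the other lists lie between -0.36 and 0.10.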

How the data were processed

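The libraries were made with a stranded poly(A) kit and sequenced from one end on 1 lane. Per the labels and methods, the authors trimmed reads with Trimmomatic 0.33, aligned them with STAR 2.5.3a to the bovine assembly UMD 3.1.1 and assigned them to genes with featureCounts of Subread 1.5.2, keeping strand. The values they deposited are raw read counts for each Entrez ID, not normalized. Symbols came from a RefSeq gene table of the later assembly ARS-UCD2.0, by ID, and positions, exons and lengths from the count files. Diet and replicate number came from the sample titles.

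Members and lists were chosen with earlier results of these data known. Of each pathway list, the genes with an unadjusted p of 0.05 or less are given (up to 4, by p) and otherwise the 2 with the highest mean CPM. For each enzyme the 3 genes with the highest correlation of deviations were taken among named genes with a mean of at least 2 CPM.

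Libraries of 1 diet with a chi-square per gene under 3 were summed, a departure from the study's fit, which is the one over 12 libraries. Low genes were removed with filterByExpr at its defaults (minimum count 10, total 15). CPM were scaled by TMM. The diets were compared with edgeR 4.0.16 in R 4.3.3 (quasi-likelihood test, diet alone, Benjamini-Hochberg over all genes tested) and by exact permutation of log2 CPM (prior count 2) over 252 arrangements. Alternatives were DESeq2 1.42.0, limma-voom (3.58.1), other scalings and filters, a replicate block and leaving out libraries. The fits were tested on simulated data. Sample totals were 8277789 to 20372918 reads, and 3 reads, the floor, equal 0.147 to 0.362 CPM, which covers counting error only.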

Additional observations from a re-analysis of the deposited data

Results flagged for a closer look

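In 22 tests of a diet group for a sample far from the others, 2 stood out, and chance marks about 1 in 20 groups. SHMT2 was at 38.4 CPM in the sample of CON 1 and 4, against 61.2 to 70.2 CPM in the other CON samples, a gap of 0.718 of the group's range. The 2 libraries of that sample, which are nearly alike over all genes and count as 1 sample, gave 37.6 and 39.1 CPM. FTCD was at 667 CPM in MET 6, against 473 to 522 CPM in the other MET samples, a gap of 0.748 of the range.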

How the results depend on the processing

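The count of genes with an FDR of 0.10 or less depended most on the processing. It was 0 over 10 samples with edgeR, 639 with DESeq2, 583 over 12 libraries, 1314 with DESeq2 over 12 libraries (added after seeing the data), and 0 to 39 when a library or pair was left out, with 39 without the pair of MET 1 and 3. With the replicate number as a block over 12 libraries it was 6, and TYMS had a log2 fold change of -0.60 with an adjusted p of 0.165. The correlations of same-numbered libraries ran from -0.190 to 0.148, and no CON library correlated best with the MET library of its own number. Correlations of expression cannot exclude a pairing by another factor, so no conclusion on pairing is drawn. The count of the 8 enzymes with an FDR of 0.10 or less was 0 over 10 samples, 1 over 12 libraries, 1 with DESeq2 and 2 with DESeq2 over 12 libraries, where MTHFD1 (-0.33, adjusted p = 0.0536) joined TYMS (-0.59, adjusted p = 0.0280). The count at an unadjusted p of 0.05 or less was 2, and 1 with library size scaling alone, 1 without a filter and 1 to 2 when a library or pair was left out, with 1 without CON 2, CON 5, MET 4, MET 5 or MET 6. Without the pair of CON 1 and 4 the 2 were TYMS and SHMT2 (unadjusted p = 0.0350 by edgeR), and MTHFD1 was at 0.0860. TYMS and MTHFD1 kept their direction in all 26 alternatives, TYMS with an unadjusted p of 0.05 or less in 26 and MTHFD1 in 18. These alternatives include the fits without CON 1, CON 4, MET 1 or MET 3, which kept all 10 samples. Why the counts moved between tools was not tested. Fold changes near 0 turned when a sample was left out. MTHFD1L ranged from -0.39 to 0.012, the latter without CON 3. ALDH1L1 ranged from -0.14 to 0.050, with 0.019 without CON 5, 0.0079 without MET 2 and 0.050 without the pair of CON 1 and 4. FTCD ranged from -0.046, without CON 3, to 0.16, with -0.015 without MET 6. MTHFD1L and MTHFD2 rested on the fewest reads, 10 to 65 per sample, and the share of counting error in their spread was not tested.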
